A study of Schizosaccharomyces pombe with 8 samples.

Results

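The data describe what changed in the RNA of growing fission yeast (Schizosaccharomyces pombe) when Mot2 was lost while the long noncoding RNA mamRNA was still present. The comparison takes the 2 libraries of the mot2∆ strain and the 2 libraries of the wild type (wt), 4 of the 8 libraries of the series. It covers every feature not listed as antisense, called sense features below. Of 6338 listed, 5988 were tested, of which 5058 were protein-coding genes. Whether strand was used in the counting is not given. The other 4 libraries come from a mamRNA∆ strain and a mot2∆ mamRNA∆ strain, and they enter here through the shared estimate of the spread. The study asked how Mot2 and mamRNA hold down the meiotic program in growing cells, and the description below goes past the meiotic targets of Mmi1 to all other functions. The mot2∆ strain carried a natMX cassette in place of mot2 in an h90 (homothallic) background, and the wt strain was h90 with no deletion. Cultures of both were kept at 30 °C for 2 days in EMM, a minimal medium, and were still growing exponentially when collected (optical density 0.6), and RNA extracted with hot acid phenol was sequenced in paired 75 nt reads after depletion of ribosomal RNA. The labels do not say whether the 2 libraries of a strain came from separate cultures, so the p-values measure only the spread between these libraries.

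Mot2 is the E3 ubiquitin ligase subunit of the Ccr4-Not complex, a conserved assembly that also shortens poly(A) tails and so takes part in mRNA decay. In growing cells the RNA-binding protein Mmi1 marks meiotic transcripts for the nuclear exosome, and its opponent Mei2, which drives entry into meiosis, is kept low. An h90 culture holds cells of both mating types, P and M, which switch type, exchange pheromones when nitrogen runs out, stick together, fuse, and go through meiosis and spore formation.

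The targeted gene was lower where it is labelled deleted, but reads remained. The level of mot2 was 4.11 and 4.26 counts per 1000000 (CPM, on totals scaled by TMM) in the mot2∆ libraries, against 22.3 and 23.4 CPM in wt, a log2 fold change of -2.45 ± 0.11 (SE) with an adjusted p of 4.4e-09. The 4 libraries held 22381332 to 30342101 counts, at which 3 counts correspond to 0.0975 to 0.141 CPM, so the remaining level in mot2∆ was above that floor. A count per gene does not show whether those reads lie inside the replaced part. Replicates differed by a median of 0.0969 on the log2 scale in mot2∆ and 0.176 in wt. Ribosomal RNA features took 0.735% and 0.258% of the counts in mot2∆, against 2.28% and 0.723% in wt.

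A feature was called when its adjusted p was under 0.05 and its level changed more than 2-fold (log2 fold change beyond 1). By this rule 273 sense features were higher in mot2∆ than in wt (4.56% of those tested) and 243 were lower (4.06%), around a median log2 fold change of -0.01 over all 5988. Among protein-coding genes 197 were higher (3.89%) and 127 lower (2.51%). Changes of over 4-fold in a well-measured protein-coding gene, with at least 10 CPM and no overlap between the 4 libraries, numbered 39 upward and 10 downward, and changes of over 16-fold numbered 8 and 2. Of a panel of 7 known Mmi1 targets (crs1, mcp5, mei4, rec8, sme2, spo5 and ssm4), 5 were higher and 0 were lower, which leaves 268 higher and 243 lower among the 5981 other sense features. The panel is only a part of the Mmi1-regulated transcripts that the paper analysed. The other features can therefore still hold Mmi1 targets. The higher features were led by cell-surface flocculins and by genes of mating, meiosis and spore formation. The lower features were led by genes near chromosome ends and by noncoding RNAs.

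**Figure D1:**
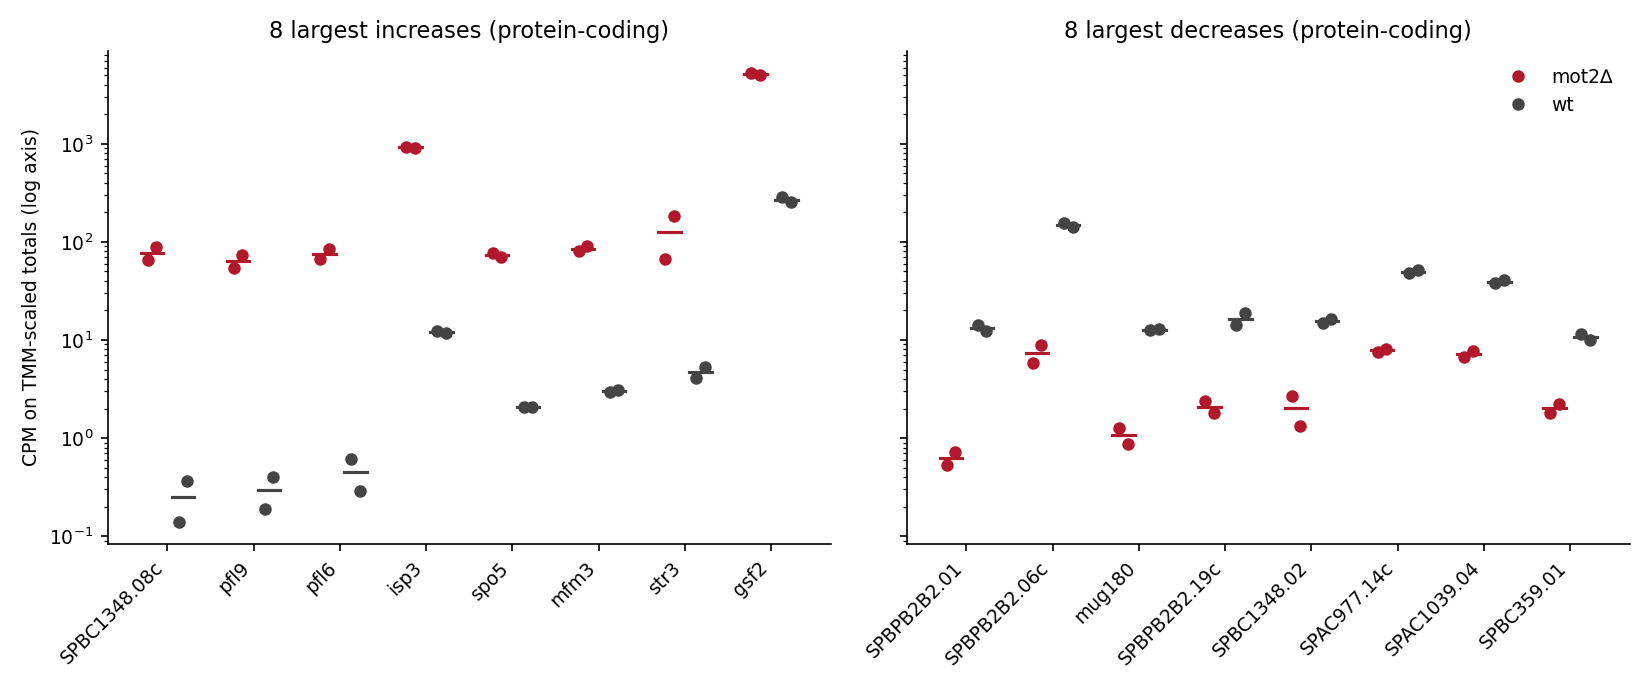
CPM (log axis) in each mot2∆ library (left of each pair) and each wt library (right of each pair) for the 8 protein-coding genes with the largest increases and the 8 with the largest decreases in fold among called genes with at least 10 CPM in the higher strain and libraries that do not overlap, a condition of the choice; short lines are means of 2 libraries. The increases run from 4.25 (gsf2) to 8.15 (SPBC1348.08c) on the log2 scale.

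Flocculins are large surface glycoproteins that make cells stick to each other or to agar. Of 12 flocculins and adhesins tested, 10 rose, 1 fell, and the median log2 fold change was 2.74, against -0.01 over all sense features. Together they gave 8790.1 and 8625 CPM in the mot2∆ libraries, against 2600.0 and 2160.0 CPM in wt. Most of this was gsf2, the galactose-specific flocculin, at 5258 and 5028 CPM in mot2∆, against 286 and 254 CPM in wt (log2 fold change 4.25 ± 0.11, adjusted p = 2.0e-11). It was the largest increase in CPM of any called sense feature. Another 3 genes of the family were close to the detection limit in wt and clearly present in mot2∆. The glycoprotein gene SPBC1348.08c had 64.9 and 88.4 CPM in mot2∆, against 0.141 and 0.362 CPM in wt, a log2 fold change of 8.15 ± 0.28 with an adjusted p of 3.7e-10. A second, pfl6, stood at 67.7 and 84.3 CPM in mot2∆, against 0.6104 and 0.289 CPM in wt, and its span is at least 95% identical to that of SPBC1348.08c, so how the reads divide between them is uncertain. The DIPSY-family gene pfl9 had 53.95 and 73.8 CPM in mot2∆, against 0.188 and 0.398 CPM in wt (log2 fold change 7.69 ± 0.32, adjusted p = 2.7e-09), and no such copy of it was found. The glycoprotein gene listed as fta5 (pfl8 in RefSeq) had 134 and 178 CPM in mot2∆, against 19.3 and 17.98 CPM in wt, with a log2 fold change of 3.07. Others that rose were pfl4 (2.79), pfl3 (2.10) and pfl5 (1.60), and the mating agglutinins map4 (2.70) of P cells and mam3 (2.07) of M cells. The exception was pfl7, scarce in both strains, which fell to 0.166 and 0.325 CPM in mot2∆, against 1.31 and 2.496 CPM in wt (adjusted p = 0.00012). With at least 10 counts required in every library, pfl7 was not tested, and neither were SPBC1348.08c, pfl6 and pfl9. The abundant pfl2 was not called, at 1155 and 1015 CPM in mot2∆, against 1817 and 1462 CPM in wt.

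The regulators of flocculation changed far less than the flocculins. Of 14 tested, 1 was called, lkh1, a LAMMER-family kinase, at 161 and 125 CPM in mot2∆, against 64.4 and 51.3 CPM in wt (log2 fold change 1.31 ± 0.13, adjusted p = 4.0e-06); its span overlaps that of another gene, and without strand in the counting their reads cannot be told apart. The MADS-box activator mbx2 stood just under the 2-fold line, at 128 and 125 CPM in mot2∆, against 64.1 and 63.5 CPM in wt (log2 fold change 0.98 ± 0.062, adjusted p = 9.8e-08). For the repressor gsf1 the log2 fold change was 0.40.

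Mating and pheromone genes of both mating types rose. Of 31 tested, 18 were called higher and 0 lower, and 27 were higher by adjusted p alone, a criterion that 28.6% of sense features met. Both mot2∆ libraries lay above both wt libraries in 26 of the 31, against 37.3% of all sense features, and the median log2 fold change was 1.10. The M-factor genes encode the lipid-modified pheromone of M cells. Of these, mfm3 had 80.5 and 90.02 CPM in mot2∆, against 2.96 and 3.08 CPM in wt (log2 fold change 4.82 ± 0.12, adjusted p = 1.7e-11), and mfm1 had 311 and 357 CPM in mot2∆, against 26.1 and 18.8 CPM in wt (log2 fold change 3.91 ± 0.14, adjusted p = 6.3e-10). The remaining one, mfm2, was the most abundant M-factor gene in wt and moved least, with 235 and 264 CPM in mot2∆, against 96.3 and 91.97 CPM in wt and a log2 fold change of 1.41. The receptor by which M cells sense P-factor, mam2, had 181 and 207 CPM in mot2∆, against 32.2 and 25.7 CPM in wt, and mam1, the exporter of M-factor, had 388 and 345 CPM in mot2∆, against 191 and 162 CPM in wt, with log2 fold changes of 2.75 and 1.05. On the side of P cells, map2, which encodes P-factor, reached 416 and 436 CPM in mot2∆, against 78.7 and 78.2 CPM in wt (log2 fold change 2.44 ± 0.065, adjusted p = 3.6e-11). The M-factor receptor map3 had 155 and 149 CPM in mot2∆, against 68.5 and 57.9 CPM in wt (log2 fold change 1.27), although its span overlaps that of a histidine synthesis gene, SPAC3F10.09, which moved with it at 144 and 138 CPM in mot2∆, against 68.04 and 59.5 CPM in wt. Downstream of the receptors, the G-protein signalling regulator rgs1 had 178 and 194 CPM in mot2∆, against 39.5 and 38.2 CPM in wt, the Ras activator ste6 had 90.3 and 106 CPM in mot2∆, against 30.3 and 30.6 CPM in wt, and the MAP kinase spk1 had 224 and 259.6 CPM in mot2∆, against 101 and 86.9 CPM in wt. These are log2 fold changes of 2.26, 1.69 and 1.36. In contrast, ste11, the transcription factor that switches on mating genes, was not called, at 566 and 395 CPM in mot2∆, against 389 and 309.8 CPM in wt (log2 fold change 0.46 ± 0.16, adjusted p = 0.028). The pathway genes gpa1, ras1 and ste4 also stayed under the threshold, with log2 fold changes of 0.09, 0.02 and 0.16. The mating-type locus mat1 and the silent mat3 carry the same M cassette sequence, so the calls of mat1-Mc (1.05) and mat3-Mc (1.10) cannot be assigned to one cassette. In these bulk cultures, more cells in mating and more RNA per cell cannot be told apart.

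Ste11 binds a sequence called the TR box, written TTCTTTGTT. RefSeq (ASM294v3) promoter windows of 250 bases before the annotated transcript start were searched on both strands for genes with an annotated 5′ untranslated region. The letters were found in 8 of 102 windows of genes called higher (7.84%), 1 of 94 of genes called lower (1.06%) and 68 of 4487 of all tested protein-coding genes (1.52%). Among mating genes 7 of 20 windows held it, including those of ste11, ste4, ste7 and mam4, none of which were called. The sites below are shown because they precede mating and meiosis genes that rose, and capitals mark the TR box or its reverse complement, AACAAAGAA, each read 5′ to 3′ on the strand of the gene.
mfm1, chrI:4916926-4916954, plus strand: gggtccgaccAACAAAGAAgtctcagttt
rgs1, chrI:679665-679693, plus strand: ttgcacaatgTTCTTTGTTccgttaaagt
spk1, chrI:3001550-3001578, minus strand: caaagaaactTTCTTTGTTattgtaagtt
mei2, chrI:4515145-4515173, minus strand: attttaaagtTTCTTTGTTttacaaaccc
A match describes the letters in the window and was not tested as a binding site.

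Among 19 regulators of meiosis, 11 rose and 0 fell, with a median log2 fold change of 1.06. The largest increase was in mei3, the inhibitor of the Pat1 kinase that releases meiosis, at 6.698 and 5.33 CPM in mot2∆, against 0.704 and 0.904 CPM in wt (log2 fold change 2.87 ± 0.22, adjusted p = 5.3e-07). The meiotic cyclin gene crs1, an Mmi1 target, had 10.7 and 8.58 CPM in mot2∆, against 1.88 and 1.27 CPM in wt, and its span overlaps ade9. The bZIP factor gene atf21 had 37.5 and 34.04 CPM in mot2∆, against 9.86 and 14.1 CPM in wt (log2 fold change 1.56 ± 0.15, adjusted p = 4.0e-06). The Mei2 gene, mei2, was abundant already in wt and rose further, at 1091 and 909 CPM in mot2∆, against 548 and 409 CPM in wt (log2 fold change 1.06 ± 0.13, adjusted p = 2.4e-05). For mei4, the forkhead factor of middle meiosis, the values were 20.3 and 19.3 CPM in mot2∆, against 8.87 and 9.51 CPM in wt, where reads from the overlapping cdk9 cannot be told apart. The noncoding sme2, which produces meiRNA, had 34.2 and 32.4 CPM in mot2∆, against 17.6 and 15.1 CPM in wt, and omt3, another noncoding RNA, had 81.6 and 79.7 CPM in mot2∆, against 28.5 and 28.04 CPM in wt, log2 fold changes of 1.03 and 1.51. Not called were pat1 (0.56) and mmi1 itself (-0.23).

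Genes that act on meiotic chromosomes moved less, from lower levels. Of 26, 9 rose, 0 fell and the median was 0.65. The linear-element protein gene rec10 had 33.5 and 29.1 CPM in mot2∆, against 7.79 and 7.597 CPM in wt (log2 fold change 2.02 ± 0.13, adjusted p = 8.8e-08), with zip1 overlapping its span. The meiotic cohesin subunits rec11 and rec8 had log2 fold changes of 1.90 ± 0.12 and 1.63 ± 0.14, with rec11 at 29.6 and 28.1 CPM in mot2∆, against 6.903 and 8.43 CPM in wt. The pairing factor meu13 had 3.81 and 4.16 CPM in mot2∆, against 1.08 and 1.302 CPM in wt. Among genes not called was rec12, which encodes the nuclease that makes meiotic breaks, with a log2 fold change of -0.04. Others were dmc1 (0.38) and hop1 (-0.26), the lowest of the list. In the list 21 of the 26 genes were above 0. By adjusted p alone 17 were higher and 1 lower (28.6% and 30.6% of all sense features were).

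Of 19 genes of spore formation, 7 rose and 0 fell, with a median log2 fold change of 0.62. The spore surface protein gene isp3 gave the clearest separation, at 929 and 909.9 CPM in mot2∆, against 12.3 and 11.6 CPM in wt (log2 fold change 6.26 ± 0.083, adjusted p = 4.6e-14). The meiotic RNA-binding protein gene spo5, an Mmi1 target, had 76.96 and 69.6 CPM in mot2∆, against 2.07 and 2.06 CPM in wt (log2 fold change 5.15 ± 0.13, adjusted p = 2.9e-11), and pcf1 overlaps its span. Spore wall and ascus enzymes rose with them: meu10, a GPI-anchored wall protein, had 306 and 314 CPM in mot2∆, against 28.1 and 27.1 CPM in wt, agn2, the glucanase that opens the ascus, had 246 and 300.0 CPM in mot2∆, against 38.7 and 34.3 CPM in wt, and eng2 had 335 and 319.9 CPM in mot2∆, against 161 and 145 CPM in wt. Their log2 fold changes were 3.49, 2.90 and 1.10. Other genes of the same process were not called, among them bgs2 (0.62), the spore wall glucan synthase, meu14 (0.06) and spo3 (-0.34).

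Markers of each stage moved to different extents. Of 10 mating markers, 9 rose and none fell, with summed levels of 1468 and 1591 CPM in mot2∆, against 341 and 315 CPM in wt. Of 7 markers of meiotic prophase and division, 3 rose, with sums of 227 and 221 CPM in mot2∆, against 166 and 170.3 CPM in wt. Of 8 spore markers, 3 rose (isp3, meu10 and agn2), with sums of 1805 and 1832 CPM in mot2∆, against 326 and 306 CPM in wt. None of these markers was at 0 in any library. The 4 markers of growing cells were not called, and 3 of them were lower by adjusted p alone (30.6% of all sense features were). The 4 summed to 28198 and 29797 CPM in mot2∆, against 42638 and 38884 CPM in wt. The part of mating, meiotic or sporulating cells in the results was not tested.

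**Figure D2:**
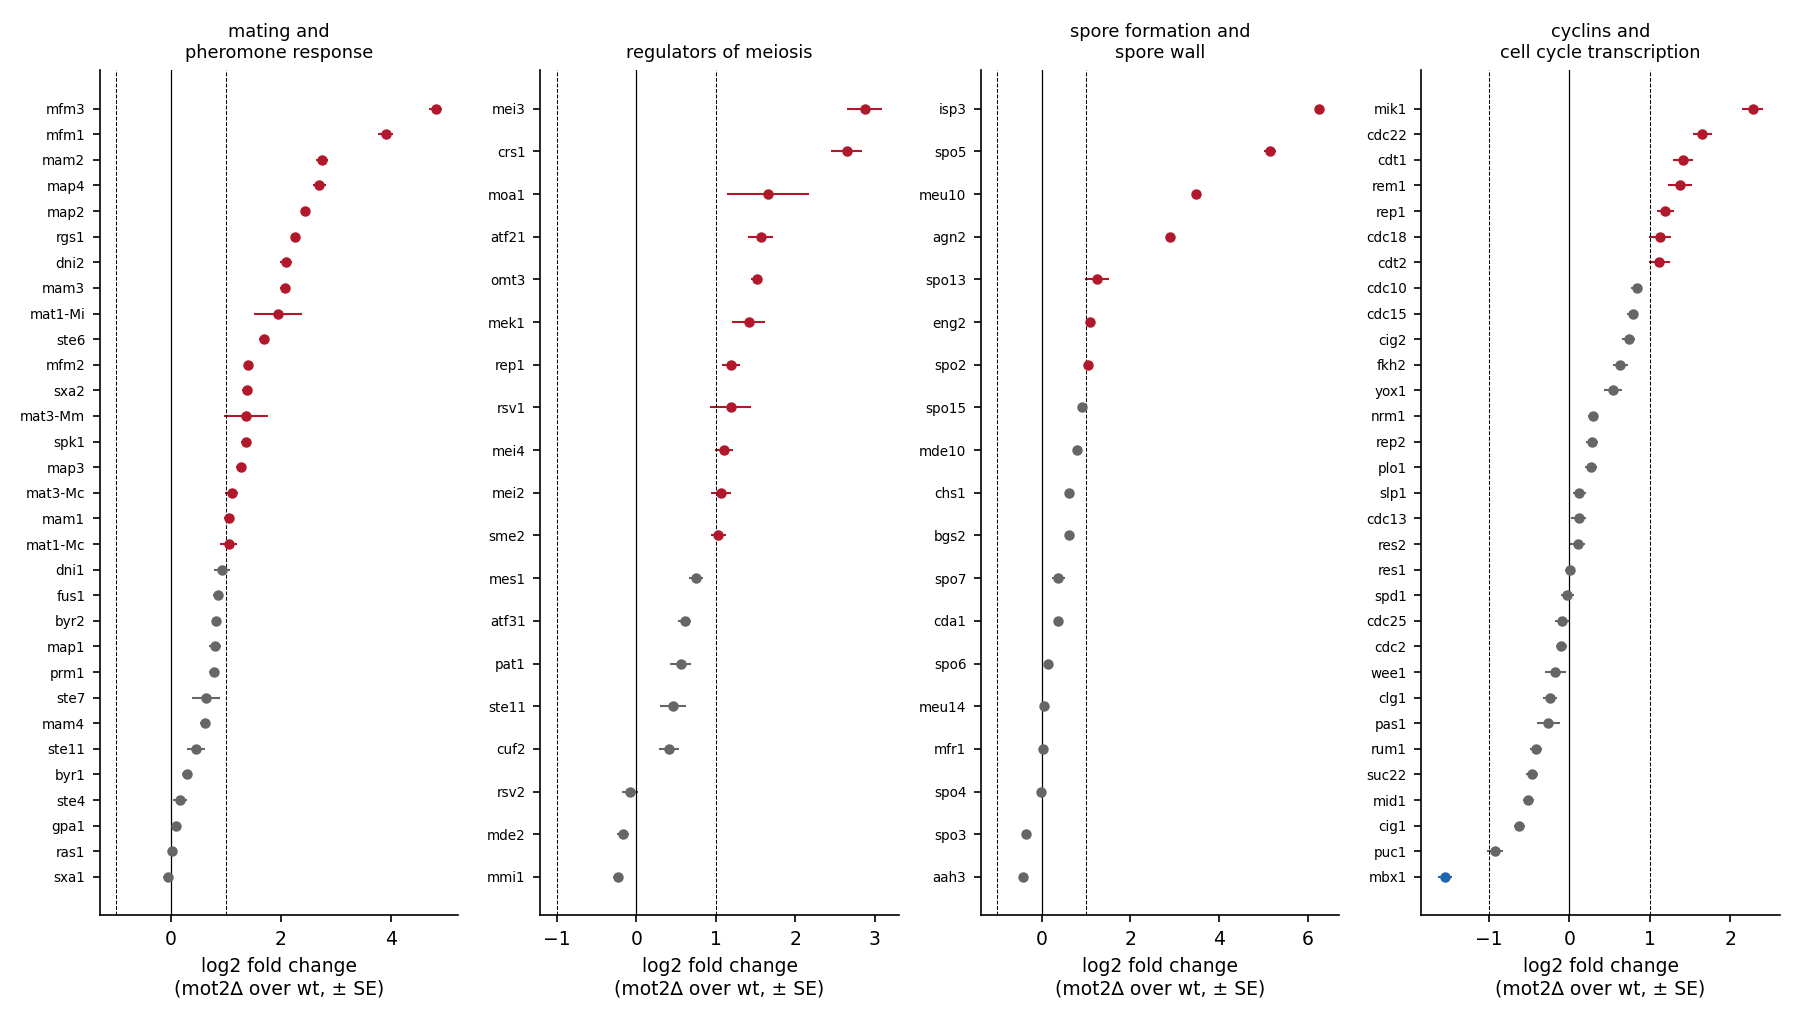
Log2 fold change (mot2∆ over wt, horizontal axis, bars ± SE) of every tested member of 4 lists; red points are called higher, blue points called lower, grey points not called, and dashed lines mark 2-fold. The points above the line at 1 run up to 4.82 (mfm3), 2.87 (mei3), 6.26 (isp3) and 2.28 (mik1), and the only blue point is mbx1 at -1.55.

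FLEX, written GTAAACAAA, is the element bound by Mei4 and other forkhead factors. It was found in 13 of 102 windows of genes called higher (12.7%), 4 of 94 of genes called lower (4.26%) and 211 of 4487 in all (4.70%). Its letters partly overlap those of the TR box, and in rep1 and spk1 a FLEX and a TR box share bases. The sites shown lie before spore, ascus and cohesin genes that rose, with FLEX or its reverse complement, TTTGTTTAC, in capitals.
isp3, chrI:95729-95757, plus strand: agcatccactGTAAACAAAaaaaaaacta
agn2, chrII:934276-934304, minus strand: caaacttgcaTTTGTTTACattttaatag
rec11, chrIII:1226986-1227014, minus strand: ctcgtgtcacGTAAACAAAcccatcgttt

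Several families named for meiosis held further increases. Of 24 meu genes (meiotic expression upregulated), 9 rose and 0 fell, with a median of 0.84, and of 105 mug genes (meiotically upregulated) 15 rose and 2 fell, with a median of 0.18. The noncoding meu3 had 419.7 and 454 CPM in mot2∆, against 5.82 and 5.75 CPM in wt (log2 fold change 6.24 ± 0.091, adjusted p = 1.0e-13) and meu19 had 368 and 399.7 CPM in mot2∆, against 8.69 and 9.12 CPM in wt (log2 fold change 5.43 ± 0.086, adjusted p = 2.1e-13). These RNAs share 68.3% and 67.3% of their spans at 95% identity or more, so their reads may be split between them. The glucosidase gene meu17 had 70.1 and 65.9 CPM in mot2∆, against 9.34 and 8.900 CPM in wt. The protein-coding mug4 rose to 64.00 and 55.7 CPM in mot2∆, against 6.15 and 4.41 CPM in wt. The wtf genes, spore killers and their antidotes, gave 8 increases and 0 decreases of 20, with a median of 0.87. Of these, wtf20 had 16.1 and 13.3 CPM in mot2∆, against 4.27 and 4.34 CPM in wt and wtf13 had 59.03 and 56.9 CPM in mot2∆, against 22.5 and 19.03 CPM in wt, with 48.4% and 100% of their spans matched elsewhere in the family. All 13 Tf2 retrotransposons were higher by adjusted p alone (28.6% of all sense features were), with log2 fold changes of 0.91 to 1.08 and a median of 0.97, and 5 were called. With the trend of fold change with gene length removed, a setting chosen after seeing the data, 0 of these retrotransposons were called. Their copies are near-identical, and the count of calls was 0 without replicate 1 of mot2∆ or of wt and 13 without replicate 2 of mot2∆ or of wt.

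Of 31 cyclin and cell cycle transcription genes, 7 rose and 1 fell, with a median of 0.12. The list was shortened by 1 gene after the values were seen. Without replicate 1 of mot2∆, 2 fell. The increases included genes of replication onset: cdc22, the large subunit of ribonucleotide reductase, had 666 and 724 CPM in mot2∆, against 235 and 207 CPM in wt (log2 fold change 1.65 ± 0.11, adjusted p = 2.3e-07). The licensing factor cdt1 had 17.1 and 18.5 CPM in mot2∆, against 7.28 and 6.22 CPM in wt, its partner in origin loading cdc18 had 30.9 and 31.5 CPM in mot2∆, against 13.8 and 14.7 CPM in wt, and cdt2, an adaptor of a ubiquitin ligase, had 51.6 and 53.1 CPM in mot2∆, against 26.8 and 21.6 CPM in wt. Their log2 fold changes were 1.41, 1.13 and 1.12. The mitotic inhibitor kinase gene mik1 had 29.02 and 27.8 CPM in mot2∆, against 5.35 and 6.26 CPM in wt (log2 fold change 2.28 ± 0.13, adjusted p = 4.3e-08) and overlaps another gene. The gene that fell, mbx1, a MADS-box factor of late mitosis, had 28.8 and 24.4 CPM in mot2∆, against 79.97 and 75.7 CPM in wt (log2 fold change -1.55 ± 0.087, adjusted p = 3.8e-08), also with an overlapping gene. The cyclin cdc13, which drives mitosis, had a log2 fold change of 0.11, and cdc2 was at -0.10. Outside the list, the cohesin ATPase gene psm3 had 119 and 107 CPM in mot2∆, against 44.05 and 44.8 CPM in wt and the flap endonuclease gene rad2 had 36.1 and 36.5 CPM in mot2∆, against 14.8 and 13.9 CPM in wt, both named after their values were seen.

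The MCB box, ACGCGT, is the site of MBF, the transcription factor of the G1 to S transition, and reads the same on both strands. It was found in 9 of 102 windows of genes called higher (8.82%) and 2 of 94 of genes called lower (2.13%). Over all windows it was found in 111 of 4487 (2.47%). In the cell cycle list 6 of 30 windows held it, and 3 of the 6 windows of list genes called higher. The list was chosen with earlier results known and shortened after the values were seen. Whether the box goes with the increases in this list was therefore not tested. A site before each of those 3 genes called higher is shown with the box in capitals.
cdc22, chrI:4226898-4226923, plus strand: tattagcgtgACGCGTctgaacgcgt
cdt1, chrII:477305-477330, plus strand: tagctacgcgACGCGTcaacaaacgc
cdt2, chrI:2035752-2035777, minus strand: tggatcacggACGCGTcgcgttcacg

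Transport and nutrient genes moved in small groups. Of 23 genes of hexose transport and sugar use, 5 rose and 1 fell (median 0.37). The gluconate transporter ght3 had 678 and 431 CPM in mot2∆, against 70.3 and 51.6 CPM in wt (log2 fold change 3.19 ± 0.20, adjusted p = 8.5e-08). The high-affinity glucose transporter ght1 had 3766 and 2793 CPM in mot2∆, against 1341 and 943 CPM in wt, next in size of CPM increase to gsf2, and overlaps the noncoding SPNCRNA.1121. Of the other family members, ght6 rose to 165 and 139.9 CPM in mot2∆, against 50.5 and 57.1 CPM in wt and ght2 fell to 111 and 99.4 CPM in mot2∆, against 209 and 236 CPM in wt (log2 fold changes 1.499 and -1.08). The count of decreases in this list was 0 without replicate 2 of wt. The maltase gene agl1 had 1877 and 1221 CPM in mot2∆, against 639.9 and 513 CPM in wt, and gto1, another alpha-glucosidase gene outside the list, had 454 and 373 CPM in mot2∆, against 64.8 and 72.7 CPM in wt. The mot2∆ libraries were uneven for ght3, ght1 and agl1, with replicate 1 above replicate 2, but did not overlap those of wt.

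Of 22 nitrogen starvation genes, 5 rose and 0 fell, with a median of 0.31. They were transporters and catabolic enzymes: isp4, an oligopeptide transporter, had 80.1 and 106 CPM in mot2∆, against 24.1 and 24.6 CPM in wt (log2 fold change 1.93 ± 0.13, adjusted p = 2.3e-07), put4, the proline transporter, had 87.9 and 116 CPM in mot2∆, against 34.1 and 30.1 CPM in wt, and per1, an amino acid permease, had 274 and 252 CPM in mot2∆, against 110.2 and 89.7 CPM in wt. The vacuolar protease gene isp6 rose to 931 and 922 CPM in mot2∆, against 462 and 376 CPM in wt, and gdh2, the NAD-dependent glutamate dehydrogenase, was also called (log2 fold change 1.08). The ammonium transporters did not move together, with log2 fold changes of 0.70 for amt1, -0.64 for amt2 and 0.20 for amt3.

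Of 21 iron and heme genes, 3 rose and 0 fell, with a median of 0.17. The transporter gene str3 had 66.3 and 185 CPM in mot2∆, against 4.09 and 5.28 CPM in wt (log2 fold change 4.73 ± 0.41, adjusted p = 1.4e-06), a wide gap between the mot2∆ libraries but above both wt libraries. Its neighbour shu1, the heme receptor, had 1.03 and 2.08 CPM in mot2∆, against 0.04696 and 0 CPM in wt, at least 7.30-fold higher against a floor of 3 counts a library. The ferrichrome transporter str1 had 991 and 1062 CPM in mot2∆, against 470.4 and 401 CPM in wt (log2 fold change 1.24 ± 0.10, adjusted p = 8.6e-07). The iron regulators php4 (0.21) and fep1 (-0.50) and the reductive uptake genes fio1 (-0.22) and fip1 (-0.22) were not called. Among 18 zinc and copper genes, the metallothionein zym1 rose to 54.9 and 55.1 CPM in mot2∆, against 10.5 and 10.9 CPM in wt and the transporter fet4 fell to 40.6 and 32.5 CPM in mot2∆, against 95.7 and 78.1 CPM in wt, log2 fold changes of 2.36 and -1.25. These single calls were each 5.56% of the list, near the 4.56% and 4.06% of all sense features.

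Cell wall genes gave 6 increases of 36 and 0 decreases. Besides meu10, agn2 and eng2 these were adg2, at 652 and 634 CPM in mot2∆, against 105 and 91.9 CPM in wt (log2 fold change 2.71 ± 0.11, adjusted p = 2.5e-09), mok14, a spore wall glucan synthase with an overlapping gene, at 211 and 181 CPM in mot2∆, against 65.1 and 59.5 CPM in wt, and gas4, a glucan-remodelling enzyme of the spore wall, at 87.2 and 83.00 CPM in mot2∆, against 33.4 and 36.1 CPM in wt. The glucan synthases of growing cells bgs1, bgs4 and ags1 had log2 fold changes of 0.06, 0.32 and -0.23.

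A group assembled after its values were seen, and so given no support from its count, breaks down or takes up purines and pyrimidines. It held xan1, the xanthine dioxygenase, at 94.6 and 93.1 CPM in mot2∆, against 23.7 and 20.7 CPM in wt, the uricase gene SPCC1223.09 at 57.04 and 54.9 CPM in mot2∆, against 23.6 and 22.5 CPM in wt and the allantoicase gene SPAC1F7.09c at 80.9 and 72.98 CPM in mot2∆, against 37.7 and 31.5 CPM in wt. The purine nucleoside transporter gene SPCC285.05 had 51.6 and 59.2 CPM in mot2∆, against 12.6 and 13.3 CPM in wt, the cytosine deaminase gene SPCC965.14c had 24.8 and 26.8 CPM in mot2∆, against 5.26 and 4.56 CPM in wt, and urg1, induced by uracil, had 37.5 and 33.1 CPM in mot2∆, against 7.42 and 6.69 CPM in wt. The uracil transporter gene fur4 went the other way, at 57.7 and 59.2 CPM in mot2∆, against 141 and 135 CPM in wt (log2 fold change -1.24 ± 0.066, adjusted p = 2.1e-08). Genes that synthesise these bases were lower: of 18 purine and pyrimidine synthesis genes, 0 rose, 2 fell, and the median was -0.46, with 12 lower by adjusted p alone (30.6% of all sense features were). The 2 were gua1, IMP dehydrogenase, at 330.1 and 376 CPM in mot2∆, against 732 and 761 CPM in wt, and gua2, GMP synthase, at 256 and 282 CPM in mot2∆, against 587 and 548 CPM in wt. Each had a log2 fold change of -1.08, and both calls were lost when replicate 1 of mot2∆ was left out (gua1 then stood at -0.98).

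**Figure D3:**
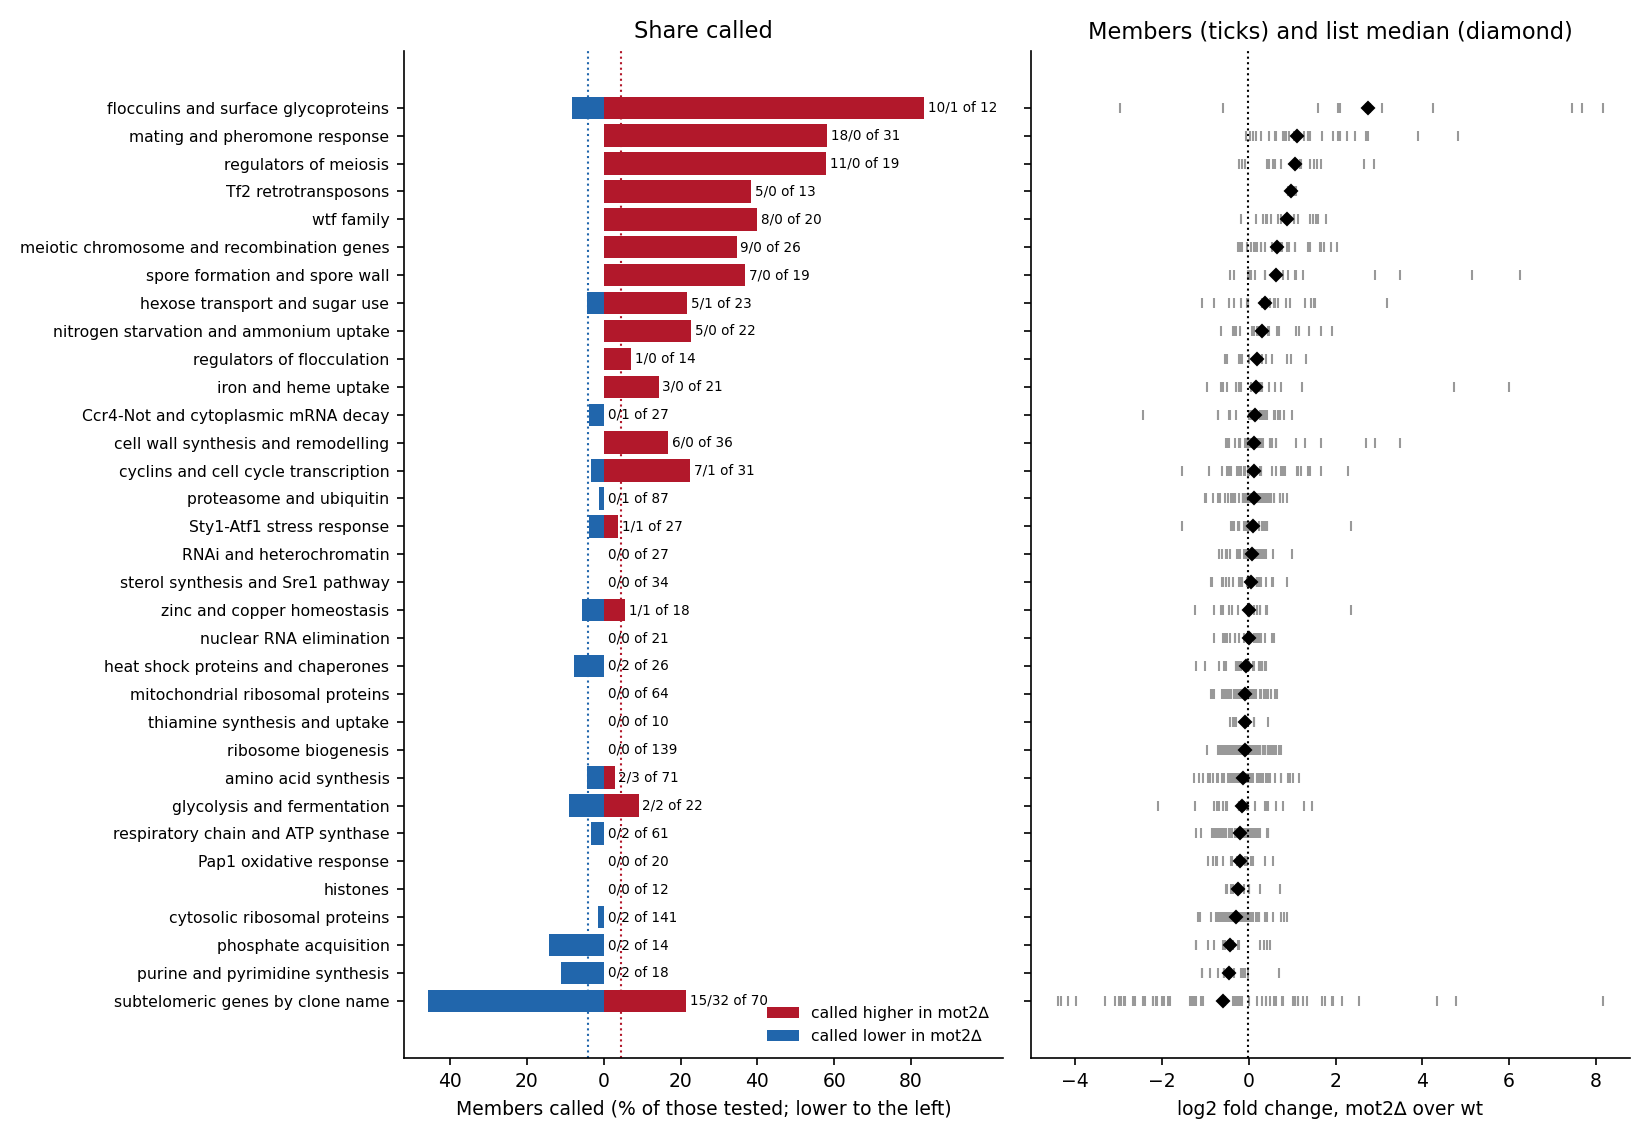
Left, the share of tested members of each list shown called higher (red, to the right) and called lower (blue, to the left) in mot2∆, with counts as higher/lower of tested and dotted lines at the shares over all sense features (4.56% and 4.06%). Right, the log2 fold change (mot2∆ over wt) of each member (ticks) and the list median (diamonds), with a dotted line at the median of all sense features. Among the lists shown, flocculins are at the top (2.74) and subtelomeric genes at the bottom (-0.58). Lists of ribosomal, transfer, small nucleolar and other noncoding RNAs, mug genes, meu genes, permeases and markers are not shown. Ribosomal RNAs had a lower median (-1.63).

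Genes of phosphate supply were mostly lower. Of 14, 0 rose and 2 fell, 10 were lower by adjusted p alone (30.6% of all sense features were), and the median was -0.42. The vacuolar polyphosphate synthesis gene vtc4 fell, at 341 and 323 CPM in mot2∆, against 853 and 701 CPM in wt (log2 fold change -1.23 ± 0.093, adjusted p = 4.8e-07), and so did, outside the list, nrf1 of the same complex, at 153 and 174 CPM in mot2∆, against 573 and 488 CPM in wt (log2 fold change -1.70 ± 0.092, adjusted p = 2.5e-08). The phosphate transporter gene SPAC23D3.12 fell to 319 and 239 CPM in mot2∆, against 653 and 640.5 CPM in wt (log2 fold change -1.21 ± 0.12, adjusted p = 3.4e-06). The main transporter pho84, at 701 and 921 CPM in mot2∆, against 1414 and 1404 CPM in wt, was not called (log2 fold change -0.80 ± 0.12, adjusted p = 0.00015), and the secreted acid phosphatase pho1 had a log2 fold change of 0.27. Vacuolar proton pump subunits vma3 (log2 fold change -1.02) and vma10 (-1.37) also fell, named after their values were seen. No list of the subunits was made, so a change of the pump as a whole was not tested.

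The translation machinery shifted down by a small amount. Of 141 cytosolic ribosomal protein genes, 0 rose and 2 fell by more than 2-fold, but 122 were below 0 and the median log2 fold change was -0.29. By adjusted p alone 88 were lower (30.6% of all sense features were), and 100 had both mot2∆ libraries below both wt libraries (38.6% of all sense features did). Summed, the 141 genes gave 72004 and 83791 CPM in mot2∆, against 99849 and 92209 CPM in wt. The 2 that fell were rpl42, at 199 and 209.9 CPM in mot2∆, against 448 and 467 CPM in wt (log2 fold change -1.16 ± 0.07, adjusted p = 6.8e-08), and rpp202, at 561 and 637 CPM in mot2∆, against 1384 and 1209.6 CPM in wt (log2 fold change -1.11 ± 0.10, adjusted p = 2.1e-06), which overlaps SPBC23G7.14. The elongation factor genes tef5, at 686 and 788 CPM in mot2∆, against 1611 and 1471 CPM in wt, and tif51, at 355 and 367 CPM in mot2∆, against 677 and 776 CPM in wt, fell as well. Fold change moved with gene length: the median was -0.25 in the shortest eighth of protein-coding genes (129 to 874 nt) and 0.18 in the longest (3358 to 15232 nt), and ribosomal protein genes had a median span of 686 nt, against 1776 nt for all. With the length trend removed, a setting chosen after seeing the data, the median of the ribosomal protein genes was -0.11 and rpl42 (-0.93), rpp202 (-0.89) and tef5 (-0.92) were no longer called. Ribosome biogenesis genes (0 called of 139, median -0.09) and mitochondrial ribosomal protein genes (0 of 64, median -0.08) stayed close to 0, and of 61 respiratory chain genes cox13 and qcr6 fell, to 24.1 and 21.5 CPM in mot2∆, against 51.2 and 54.4 CPM in wt and to 30.4 and 26.9 CPM in mot2∆, against 60.01 and 62.2 CPM in wt. With the length trend removed, qcr6 too was no longer called (-0.97). The 2 decreases were 3.28% of the respiratory chain genes, against 4.06% of all sense features. Of 71 amino acid synthesis genes, 2 rose (2.82%) and 3 fell (4.23%), near or under the shares over all sense features (4.56% and 4.06%). The increases numbered 1 without replicate 2 of mot2∆ or of wt. The largest decrease was in SPAC17G8.06c (ilv3 in RefSeq), dihydroxy-acid dehydratase, at 541 and 541 CPM in mot2∆, against 1357 and 1242 CPM in wt (log2 fold change -1.26 ± 0.084, adjusted p = 1.6e-07), with med20 overlapping its span.

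Of 22 glycolysis and fermentation genes, 2 were called higher and 2 lower. The lower calls numbered 1 when at least 10 counts were required in every library. In the list 14 genes were below 0 and 8 above, with a median of -0.17, which stood at 0.018 without replicate 1 of wt. Summed, the list gave 63875 and 66948 CPM in mot2∆, against 87340 and 77239 CPM in wt. Of those called, pdc201, a pyruvate decarboxylase, had 115 and 85.4 CPM in mot2∆, against 36.7 and 35.9 CPM in wt, and zwf2 (gcd1 in RefSeq), annotated as a glucose-6-phosphate dehydrogenase, had 2190.4 and 1756 CPM in mot2∆, against 969 and 675 CPM in wt, whereas the enolase gene eno102 had 3.51 and 3.19 CPM in mot2∆, against 7.94 and 7.92 CPM in wt and pdc102, another pyruvate decarboxylase gene, had 0.298 and 0.0975 CPM in mot2∆, against 0.892 and 0.832 CPM in wt. The aldehyde dehydrogenase gene atd1, next to gsf2 and ght1 in CPM gained, had 2794 and 2737 CPM in mot2∆, against 1335 and 1298 CPM in wt (log2 fold change 1.07 ± 0.093, adjusted p = 1.5e-06) and overlaps rad26. With the length trend removed, atd1 was no longer called (0.998).

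Of the 8 largest decreases among well-measured protein-coding genes, 6 lie among the 30 outermost annotated genes of a chromosome end, and the exceptions are SPBC359.01 and SPAC1039.04. The amino acid permease gene SPBPB2B2.01 had 0.531 and 0.715 CPM in mot2∆, against 14.3 and 12.3 CPM in wt (log2 fold change -4.40 ± 0.19, adjusted p = 3.8e-09), and the phosphatase gene SPBPB2B2.06c had 5.77 and 8.91 CPM in mot2∆, against 155 and 143 CPM in wt (log2 fold change -4.34 ± 0.16, adjusted p = 7.3e-10). Between them lies mug180 (say1 in RefSeq, a sterol deacetylase), at 1.26 and 0.878 CPM in mot2∆, against 12.5 and 12.8 CPM in wt (log2 fold change -3.57 ± 0.22, adjusted p = 8.5e-08). The membrane protein genes SPBPB2B2.19c and SPBC1348.02, at 2.39 and 1.79 CPM in mot2∆, against 14.2 and 18.8 CPM in wt and at 2.69 and 1.33 CPM in mot2∆, against 14.8 and 16.2 CPM in wt, are near-identical over their full spans to each other and to further copies, so their values are uncertain individually. The aldo-keto reductase gene SPAC977.14c had 7.49 and 8.16 CPM in mot2∆, against 47.8 and 51.7 CPM in wt (log2 fold change -2.67 ± 0.091, adjusted p = 3.9e-10), the amino acid permease gene SPBC359.01 had 1.79 and 2.24 CPM in mot2∆, against 11.5 and 10.1 CPM in wt, and the carboxylic acid transporter gene SPAC1039.04 had 6.698 and 7.802 CPM in mot2∆, against 38.1 and 40.7 CPM in wt.

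Counted from the ends of the 3 chromosomes, the 30 outermost annotated protein-coding genes of each end gave 164 tested genes, of which 30 rose (18.3%) and 44 fell (26.8%), with a median of -0.18. Of the other 4894 protein-coding genes 167 rose (3.41%) and 83 fell (1.70%). In 55 of the 164 over 50% of the span is at least 95% identical to another place in the genome, and those held 15 increases and 20 decreases. The 109 without such copies held 15 and 24. The ends differed: the right end of chromosome II had 3 increases and 14 decreases, both ends of chromosome I had 9 and 10 (left) and 7 and 9 (right), the left end of chromosome II had 8 and 8, and chromosome III had 0 and 3 (left) and 3 and 0 (right). By clone name, 70 subtelomeric genes gave 15 increases and 32 decreases with a median of -0.58; the increases numbered 7 without replicate 1 of mot2∆ and 6 when at least 10 counts were required in every library.

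Runs of neighbouring genes were called in the same direction. Near the left end of chromosome I, 6 neighbours rose in an unbroken run: ght3, shu1, str3, the hydrolase gene SPAC1F8.04c, isp3 and fta5, which are thus a gluconate transporter, a pair of heme and iron genes, a spore protein gene and a flocculin. A run of 5 that rose surrounded pfl6 (SPAC977.04 to SPAC977.08) and another SPBC1348.08c (SPBC1348.05 to SPBC1348.09). These are near-identical copies of each other, gene by gene, and the reads cannot be assigned to either. Runs of 5 that fell went from SPAC1039.01 to klf1 and from fub2 to SPBPB2B2.06c, and the galactose genes gal10 and gal1 fell as part of a run of 3. In all, 59 of the 197 genes that rose (29.9%) and 42 of the 127 that fell (33.1%) had a called neighbour of the same direction. Over all 5058 tested protein-coding genes, 7.22% had a neighbour that rose and 4.31% one that fell. These counts include near-identical copies and overlapping genes, whose part in them was not tested.

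**Figure D4:**
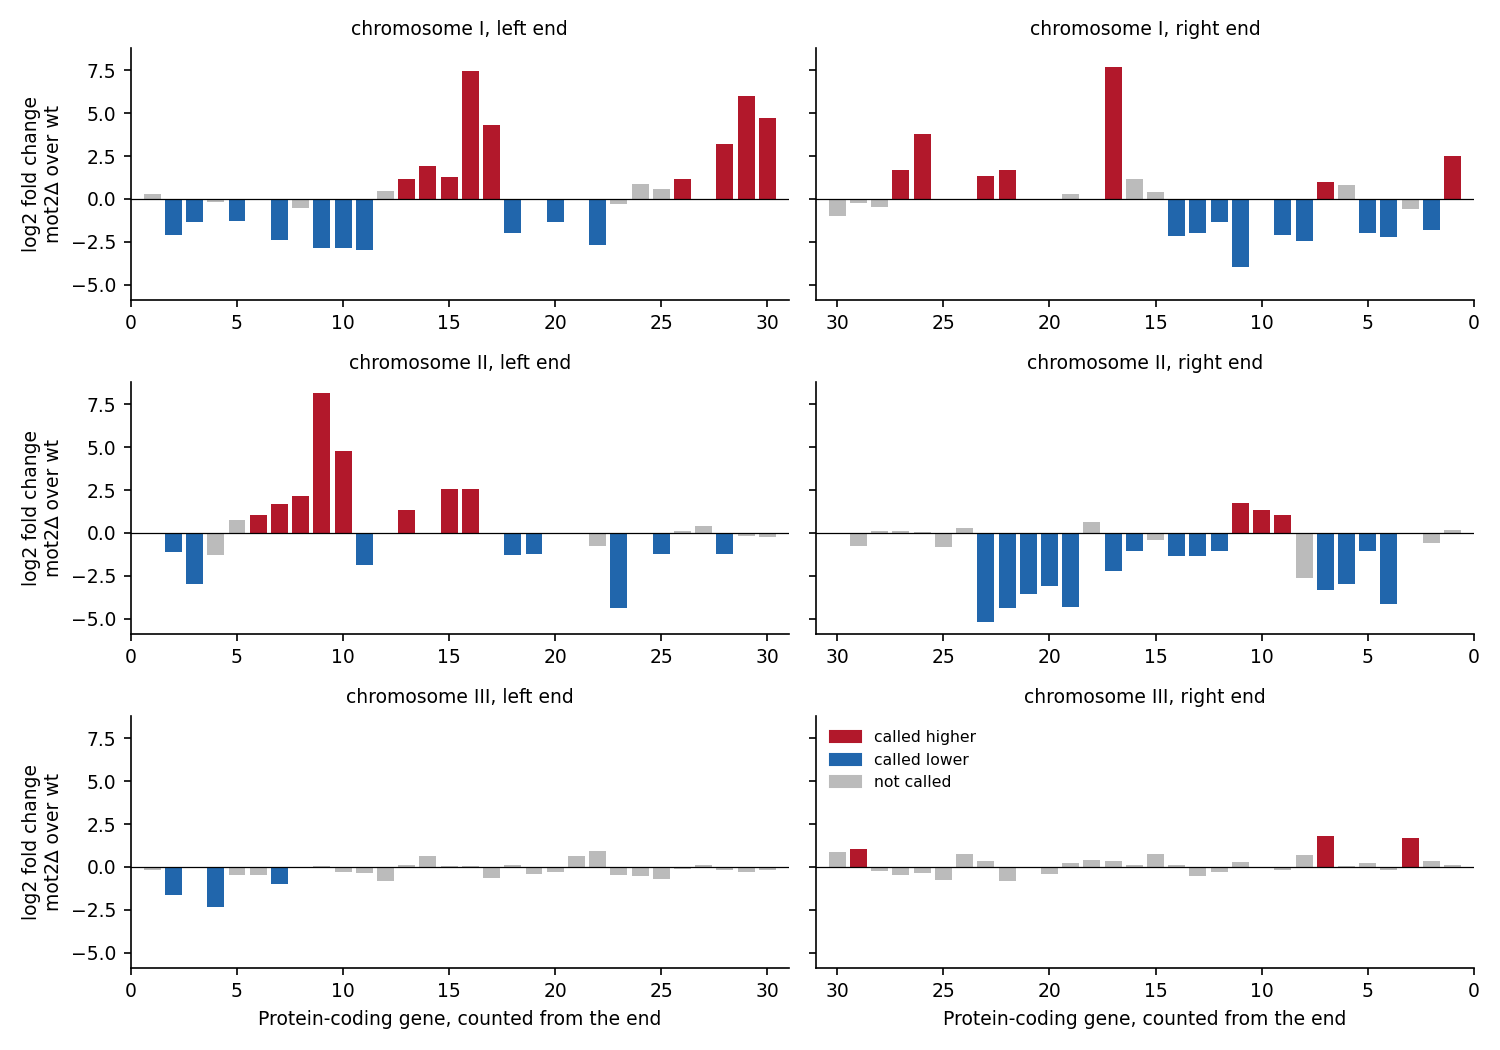
Log2 fold change (mot2∆ over wt, vertical axis) of the 30 outermost protein-coding genes at each end of chromosomes I, II and III, counted from the end (horizontal axis); red bars are called higher, blue bars called lower and grey bars not called. Red and blue bars stand in blocks of neighbours, with 14 blue bars at the right end of chromosome II.

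Noncoding RNAs differed by class. Of 706 numbered noncoding RNAs, 54 rose (7.65%) and 96 fell (13.6%), with a median of -0.15. With the length trend removed 60 fell, in a setting that also keeps only features with an annotated span. In 15 ribosomal RNA features tested, 1 rose and 11 fell, but this rested on single libraries: the number that fell was 0 without replicate 1 of wt and 3 without replicate 2 of mot2∆. Of 64 small nucleolar and small nuclear RNAs, 5 rose and 1 fell, and the increases numbered between 2 and 8 with 1 library left out. Of 43 transfer RNAs tested, mostly scarce, 5 rose and 0 fell. None rose when at least 10 counts were required in every library, while 3 rose without replicate 2 of wt and 8 without replicate 1 of mot2∆.

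Several functions held no call at the 2-fold threshold: thiamine synthesis and uptake (10 genes), the Pap1 oxidative response (20), histones (12), nuclear RNA elimination (21), RNAi and heterochromatin (27) and sterol synthesis (34). Over all sense features 4.56% were called higher and 4.06% lower, shares at which lists this short hold few calls. By adjusted p alone the Pap1 list held 1 higher and 11 lower (median -0.20), and histones 2 and 7 (median -0.26). Thiamine genes gave 1 higher and 3 lower, RNAi and heterochromatin 7 and 7, and sterol synthesis 10 and 11. In nuclear RNA elimination, which includes mmi1, 7 genes were higher and 7 lower by adjusted p alone, within log2 fold changes of -0.80 (erh1) and 0.59 (dis3). Over all sense features 28.6% were higher and 30.6% lower by that criterion, close to the shares of this list. Of 27 genes of Ccr4-Not and cytoplasmic decay the only call was mot2, while 13 were higher and 6 lower by adjusted p alone (28.6% and 30.6% of all sense features were). The scaffold not1 had a log2 fold change of 0.61, the deadenylases caf1 and ccr4 had 0.41 and 0.12, and the decapping subunits dcp2 and dcp1 had 0.81 and -0.71. Heat shock genes gave 2 decreases of 26, hsp3103 (-1.21) and hsp3101 (-1.005). The call of hsp3101 sat at the threshold and was lost in 9 of 15 alternatives, down to -0.88 with the length trend removed. The Sty1-Atf1 stress list gave 1 increase (zym1) and 1 decrease, obr1, at 147 and 154 CPM in mot2∆, against 472 and 411 CPM in wt. Each was 3.70% of the 27 genes, under the 4.56% and 4.06% of all sense features.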

How the data were processed

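RNA was sequenced by the authors on an Illumina NextSeq after ribosomal RNA depletion. Reads were demultiplexed (bcl2fastq 2.18.12), trimmed (cutadapt 1.15) and aligned with Bowtie 2, and the authors deposited raw counts per annotated feature, made with MulticovBed on the Galaxy server. The build, the annotation and the use of strand in the counting are not given in the sources used here, so reads of overlapping or antisense genes cannot be told apart.

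Tests were run with edgeR 4.0.16 under R 4.3.3: filterByExpr (minimum count 10, minimum total 15), TMM scaling, 1 model with 1 term per genotype over all 8 libraries, and the two-sided quasi-likelihood F test of mot2∆ minus wt, adjusted by Benjamini-Hochberg over 6620 features, 632 of them antisense. Every adjusted p in the text is from this edgeR test, and n is 2 libraries per genotype. Each SE is the absolute log2 fold change, or difference of effects, divided by the square root of F. It is thus an approximation read back from the test. The script was tested on simulated data with 200 changed features. Alternatives were DESeq2 1.42.0, other scalings and filters, a replicate block and leaving out each library. Chosen after seeing the data were settings without rRNA, with only features that have an annotated span, and with those features and the length trend removed. Replicate numbers did not pair the libraries (correlation of replicate differences between wt and mot2∆ 0.05).

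Names, products, gene order and promoter windows came from RefSeq ASM294v3, matched by name only, and copies were found with BLAST+ 2.17.0 (at least 95% identity over 75 nt). Genes were named by rule: mot2, the 8 largest changes each way in fold (at least 10 CPM, libraries not overlapping) and 5 in CPM, and up to 4 called members per list with up to 2 not called. Further genes were added after their values were seen. Members and lists were chosen with earlier results of these data known. A floor of 3 counts was used for fold bounds and covers counting error only. Features whose names clash between the files and RefSeq (sod2, ups1, can1 and nde2) were left out of lists and positions, and 1 gene was left out of the cell cycle list after the values were seen and is not reported here.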

Additional observations from a re-analysis of the deposited data

Results flagged for a closer look

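For the 8 largest increases and 8 largest decreases in mot2∆ among called genes with at least 10 CPM in the higher strain and libraries that do not overlap, the same deletion was compared in strains lacking mamRNA, as a difference of the 2 effects (mot2∆ effect without mamRNA minus effect with mamRNA, log2) tested in the same edgeR model. In 11 of 16 genes the adjusted p was under 0.05 and the difference was beyond 1. The genes were chosen by the effect that the difference subtracts, so its sign is favoured by the choice.

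Among the flocculins it was -6.83 ± 0.14 (SE) for gsf2, which had 473 and 482 CPM in mot2∆ mamRNA∆, against 2862 and 2846 CPM in mamRNA∆. It was -11.35 ± 0.34 for pfl6, -10.50 ± 0.53 for pfl9 and -11.55 ± 0.44 for SPBC1348.08c. The last had 0.272 and 0.627 CPM in mot2∆ mamRNA∆, against 4.78 and 4.63 CPM in mamRNA∆. All 4 were thus lower in both mot2∆ mamRNA∆ libraries than in both mamRNA∆ libraries, the opposite order to mot2∆ and wt. All 4 were also higher in mamRNA∆ than in wt, where gsf2 had 286 and 254 CPM and SPBC1348.08c had 0.141 and 0.362 CPM, and the size of the differences rests partly on this. Reads of pfl6 and SPBC1348.08c may be shared, as above.

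The mating and spore genes differed in the same direction. The difference was -4.73 ± 0.19 for the pheromone gene mfm3, with 3.600 and 3.43 CPM in mot2∆ mamRNA∆, against 3.66 and 3.02 CPM in mamRNA∆. It was -5.29 ± 0.23 for spo5 and -5.91 ± 0.11 for the spore protein gene isp3, which had 21.2 and 21.8 CPM in mot2∆ mamRNA∆, against 16.7 and 16.9 CPM in mamRNA∆. The iron transporter gene str3 went the other way, at 1.78 ± 0.59 (adjusted p = 0.027), and lost the call with total count scaling.

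Of the genes that fell, the permease gene SPBPB2B2.01 had a difference of -1.39 ± 0.39, SPAC1039.04 of 1.47 ± 0.13 and SPBC359.01 of 1.93 ± 0.25.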

How the results depend on the processing

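Over 15 alternatives the number of sense features higher in mot2∆ ran from 231 to 299 and the number lower from 181 to 244. With at least 10 counts in every library 231 were higher, 225 of them among the 273. With the length trend removed, in only the 5873 features with an annotated span, 181 were lower, 173 of them among the 243. In those features with the trend left in, 222 were lower. Leaving out each library gave 262 to 299 higher and 199 to 240 lower, and DESeq2 gave 260 and 229. With a replicate block the counts were 272 and 244, and the replicate numbers did not pair the libraries. mot2 kept its direction and call in every alternative. Log2 fold changes of the named features kept direction and call in 1480 comparisons and lost the call in 62, with 0 reversed, among them Tf2 copies, ribosomal RNAs, gua1, gua2, tef5, rpp202, qcr6, lys12 (without replicate 1 of wt), hsp3101 and uep1. Medians changed sign in at least 1 alternative in 9 of 45 lists, each within 0.168 of 0. The Sty1-Atf1 list stood at -0.039 without replicate 1 of mot2∆ and 0.18 without replicate 2, and with the length trend removed mitochondrial ribosomal proteins stood at 0.021 and prl noncoding RNAs at 0.042. The difference of effects for SPAC977.14c was -0.036 with total count scaling, and that for str3 fell short of the call at 1.68. The causes were not tested. With 3 counts at 0.0975 to 0.141 CPM, changes in features under about 1 CPM rest on few reads.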

Other observations

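Antisense features, which the sense counts leave out, gave 37 higher and 14 lower of 632 tested in mot2∆ against wt. Of 561 with a tested sense partner, 45 were called, and in 37 the sense feature was called in the same direction. In 538 of the 561 the mean in wt was over 0.1 times that of the sense feature, and in 226 it was within 1.2 times. For psm3 the antisense feature had 114 CPM in mot2∆, against 45.01 CPM in wt, and the sense feature had 113 CPM in mot2∆, against 44.4 CPM in wt. For isp3 the antisense feature had 652 CPM in mot2∆, against 5.95 CPM in wt; the sense feature is described above. Antisense transcripts and sense reads counted without strand cannot be told apart.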
